A study of Homo sapiens with 84 samples.

Results

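Potassium channel genes are the human genes whose symbols begin with KCN, a letter of the channel families and a digit. The deposited peak annotation held 84 such symbols once those marked as antisense by -AS were left out. Of these 83, among 24455 genes in all, had at least 1 peak within 10 kb of their transcription start site (TSS). KCNJ15 had none there, its nearest peak lying 31075 bp away. Of the 83, 77 encode channel subunits: 26 voltage-gated pore subunits, 10 silent modifiers, 4 KCNE beta subunits, 15 inward rectifiers, 15 two-pore-domain channels and 7 of the calcium- and sodium-activated families. The other 6 are transcripts named after a neighbouring channel gene (KCNC4-DT, KCND3-IT1, KCNH1-IT1, KCNK4-TEX40, KCNQ1OT1 and KCNQ5-DT). The large-conductance calcium-activated channel gene KCNMA1 lies outside the naming rule.

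Open chromatin was profiled by ATAC-seq, in which a transposase tags accessible DNA, in established lines of triple-negative breast cancer, a tumour class without hormone receptors or amplified HER2. HCC1143, HCC1395, HCC1937, BT-20 and BT-549 were given tazemetostat plus ipatasertib (the combination) or the solvent DMSO. MDA-MB-231, MDA-MB-468, SUM-149PT and SUM-159PT were given the combination, tazemetostat alone, ipatasertib alone or DMSO. Tazemetostat, an inhibitor of the histone methyltransferase EZH2, and ipatasertib, an inhibitor of AKT kinases, were each used at 5 uM. The schedule described for MDA-MB-468 gave tazemetostat or DMSO from day -5 and ipatasertib from day 0 in medium with 2% serum, with collection 24 hours later. On that schedule the DMSO cells were in low serum too, and the agents differ in length of exposure. No schedule is given for the other lines.

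Each of 26 groups had 3 libraries, with 12292571 to 21459284 counts in peaks per library. No label says whether the 3 came from separate cultures, and in 76 of 78 pairs they differed by less than sampling noise, so they were summed to 1 sample and the cell line was the unit of replication. Both other pairs involved replicate 3 of HCC1395 in DMSO, whose counts were best described as a mixture with an 11.1% share of the BT-20 profile. Lines differed in lineage markers: summed accessibility of 4 epithelial markers lay between 5.24 CPM (counts per 1000000 counts in peaks) per kb of peak (BT-549) and 42.9 (HCC1937), and that of 3 mesenchymal markers between 15.3 (MDA-MB-468) and 49.1 (BT-549). Immune markers summed to 2.64 to 8.05, endothelial ones to 4.38 to 9.56 and fibroblast ones to 2.53 to 7.93 CPM per kb. Their part in the results was not tested. In these bulk samples, a change in the share of cells with an open locus and a change in openness per cell cannot be told apart.

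Potassium channels let potassium ions leave or enter cells down their gradient and so set the membrane potential. Voltage-gated pores open on depolarisation, inward rectifiers and two-pore channels hold the resting potential, and calcium-activated channels couple the potential to intracellular calcium. Silent modifiers and KCNE proteins do not conduct on their own but alter the gating of pore subunits. Many channel genes are restricted to nerve, muscle or secretory epithelia, and a good number of tissue-restricted genes are held silent elsewhere by Polycomb repressive complex 2, of which EZH2 is the catalytic subunit.

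Promoter sequences are shown for 6 members whose promoter window overlaps an accessible peak and whose values differ in kind: KCNA5, KCND3, KCNJ2 and KCNJ3, whose promoter peak opened with the combination, KCNJ13, whose sum is its promoter peak alone and whose window holds a single CpG, and KCNN4, whose promoter peak closed. Each runs 5′ to 3′ from 250 bases before to 50 bases after the gene's start (RefSeq, GRCh38.p14), and capitals mark CpG dinucleotides.
KCNA5 (chr12:5043629-5043928, plus strand): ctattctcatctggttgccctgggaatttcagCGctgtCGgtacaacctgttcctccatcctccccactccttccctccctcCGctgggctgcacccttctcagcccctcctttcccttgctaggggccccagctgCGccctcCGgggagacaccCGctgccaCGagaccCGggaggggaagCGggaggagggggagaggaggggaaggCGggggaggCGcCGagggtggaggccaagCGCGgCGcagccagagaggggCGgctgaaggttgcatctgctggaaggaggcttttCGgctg
KCND3 (chr1:111989619-111989918, minus strand): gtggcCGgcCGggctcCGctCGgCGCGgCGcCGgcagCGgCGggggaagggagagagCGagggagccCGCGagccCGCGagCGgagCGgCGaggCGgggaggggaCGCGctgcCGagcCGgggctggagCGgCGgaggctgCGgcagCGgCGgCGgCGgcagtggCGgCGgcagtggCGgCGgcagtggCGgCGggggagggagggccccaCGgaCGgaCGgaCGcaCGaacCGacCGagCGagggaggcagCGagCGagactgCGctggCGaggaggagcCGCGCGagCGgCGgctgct
KCNJ2 (chr17:70169282-70169581, plus strand): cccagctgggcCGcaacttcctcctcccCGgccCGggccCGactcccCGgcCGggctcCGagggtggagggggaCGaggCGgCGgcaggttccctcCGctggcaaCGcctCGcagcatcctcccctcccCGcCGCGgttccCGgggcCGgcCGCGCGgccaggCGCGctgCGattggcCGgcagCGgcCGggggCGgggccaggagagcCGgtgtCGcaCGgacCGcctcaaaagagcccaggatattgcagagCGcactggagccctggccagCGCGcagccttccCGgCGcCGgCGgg
KCNJ3 (chr2:154698445-154698744, plus strand): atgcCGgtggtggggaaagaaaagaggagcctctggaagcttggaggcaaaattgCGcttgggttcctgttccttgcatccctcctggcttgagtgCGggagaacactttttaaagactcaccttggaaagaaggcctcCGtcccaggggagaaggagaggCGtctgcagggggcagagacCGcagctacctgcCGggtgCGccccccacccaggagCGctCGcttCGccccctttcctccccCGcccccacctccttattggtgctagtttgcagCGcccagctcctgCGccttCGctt
KCNJ13 (chr2:232776516-232776815, minus strand): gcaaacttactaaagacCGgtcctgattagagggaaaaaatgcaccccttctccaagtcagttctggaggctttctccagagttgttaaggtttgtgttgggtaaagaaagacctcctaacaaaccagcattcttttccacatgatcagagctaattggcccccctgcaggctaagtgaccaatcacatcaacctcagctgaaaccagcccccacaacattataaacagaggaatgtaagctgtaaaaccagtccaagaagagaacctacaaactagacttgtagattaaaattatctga
KCNN4 (chr19:43780924-43781223, minus strand): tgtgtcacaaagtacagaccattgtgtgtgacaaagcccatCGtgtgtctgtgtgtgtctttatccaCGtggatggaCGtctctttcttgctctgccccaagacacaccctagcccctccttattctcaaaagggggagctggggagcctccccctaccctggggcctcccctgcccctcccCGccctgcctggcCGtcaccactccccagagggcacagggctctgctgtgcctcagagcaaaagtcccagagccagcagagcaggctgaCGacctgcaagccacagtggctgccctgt
The KCND3 window held 53 CpGs and that of KCNJ2 held 39, with GC contents of 81.7% and 78.0%. KCNA5 held 17 and KCNJ3 15 CpGs, KCNN4 held 6 and KCNJ13 held 1, at a GC content of 43.0%.

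The RefSeq table matched 63 of the members. Their windows had a median GC content of 65.7%, against 58.3% over all 27305 promoters in the table, and a median observed-over-expected CpG ratio of 0.63, against 0.58. The letters GGGCGG, on either strand, occurred in 40 of the 63 (63.5%), against 44.6% of all promoters. TATAAA occurred in 6 (9.52%), against 11.95%. CAGCACC occurred in 8 (12.7%), against 7.64%, and GTAAACA in 0 of the 63, against 3.41%. The ratio had a median of 0.69 in the 24 matched members that rose with the combination and of 0.63 in the 38 that did not, and ran from 0.073 to 1.16 among those that rose and from 0.13 to 1.06 among those that did not. Both kinds of member spanned CpG-poor and CpG-rich windows. The RefSeq start is not always the TSS of the deposited annotation. The windows of KCNJ16, KCNN1 and KCNN2, which rose, lie away from the peaks counted at their annotated TSS.

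In DMSO the members were on the whole less accessible than other genes. Their median level over the 9 lines was 2.42 CPM per kb of peak, against 3.74 for all genes. The highest levels belonged to KCNC4-DT at 12.7, KCNH1-IT1 at 9.02, KCNG3 (a silent modifier) at 8.62, KCNK15 (a two-pore channel) at 8.496 and KCNN4 (the intermediate-conductance calcium-activated channel of lymphocytes and red cells) at 8.04 CPM per kb. Neighbours in this order did not separate: KCNN4 alone spanned 3.16 to 17.4 CPM per kb over the lines. KCNE5 (a beta subunit) at 0.51 and KCNA5 at 0.53 CPM per kb were at the bottom. The RefSeq promoter windows of KCNC4 and KCNH1 lie under peaks assigned to KCNC4-DT and KCNH1-IT1. The sums of KCNC4 and KCNH1 leave these peaks out.

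**Figure D1:**
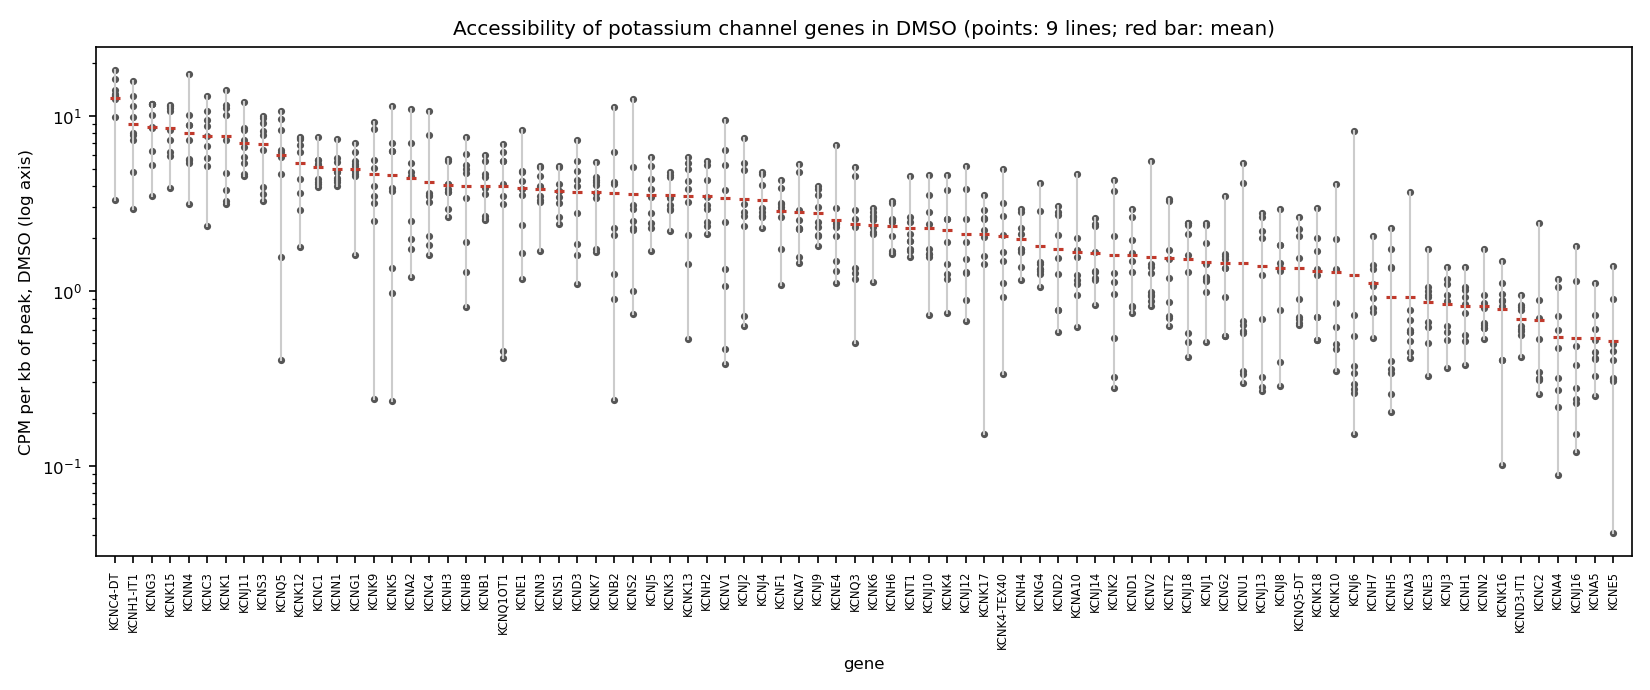
Accessibility of 82 of the 83 members in DMSO as CPM per kb of summed peak length on a log axis. Each point is 1 of 9 cell lines and the red bar is the mean, which runs between 0.51 (KCNE5) and 12.7 (KCNC4-DT).

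Several loci had a high signal in some lines and very little in others, as the spread of points for each gene in the plot of DMSO levels shows. The counts were not corrected for DNA copy number, whose part in this spread was not tested. KCNJ6, a subunit of G-protein-gated channels, had 0.177 CPM in HCC1395 and 9.52 CPM in HCC1143, a log2 range of 5.75. SUM-159PT was the lowest line for 3 of the 5 members with the widest range among those with a mean of at least 1 CPM. In that line KCNK5, a pH-sensitive two-pore channel, had 0.782 CPM, while its highest value was 37.8 CPM in MDA-MB-468. KCNB2, a delayed rectifier, had 0.667 CPM in SUM-159PT and 31.7 CPM in BT-549, and KCNK9, an acid-sensitive two-pore channel, 1.403 CPM in SUM-159PT and 53.4 CPM in HCC1937. KCNQ5, a subunit of the M current, was lowest in BT-20 (1.57 CPM) and highest in HCC1395 (42.2 CPM). Over all 79 members above that mean the median log2 range was 2.44.

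The combination opened potassium channel genes far more often than it closed them. Across the 9 lines 32 of 83 members rose (38.6%), where 10.2% of all genes tested did, and 2 members fell (2.41%), where 16.6% of all genes did. The members' median log2 change was 0.19, against -0.02 for all genes, and 73 of 83 lay above 0, against 46.4% of all genes. A rise or fall means an adjusted p under 0.05 in edgeR's quasi-likelihood test over all genes, with the line as block and Benjamini-Hochberg adjustment. Among the 32, 15 were higher in 9 of 9 lines, 11 in 8, 4 in 7 and 2 in fewer. The changes were mostly small: 12 had a log2 change of at least 0.5 and 11 were under 0.3.

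**Figure D2:**
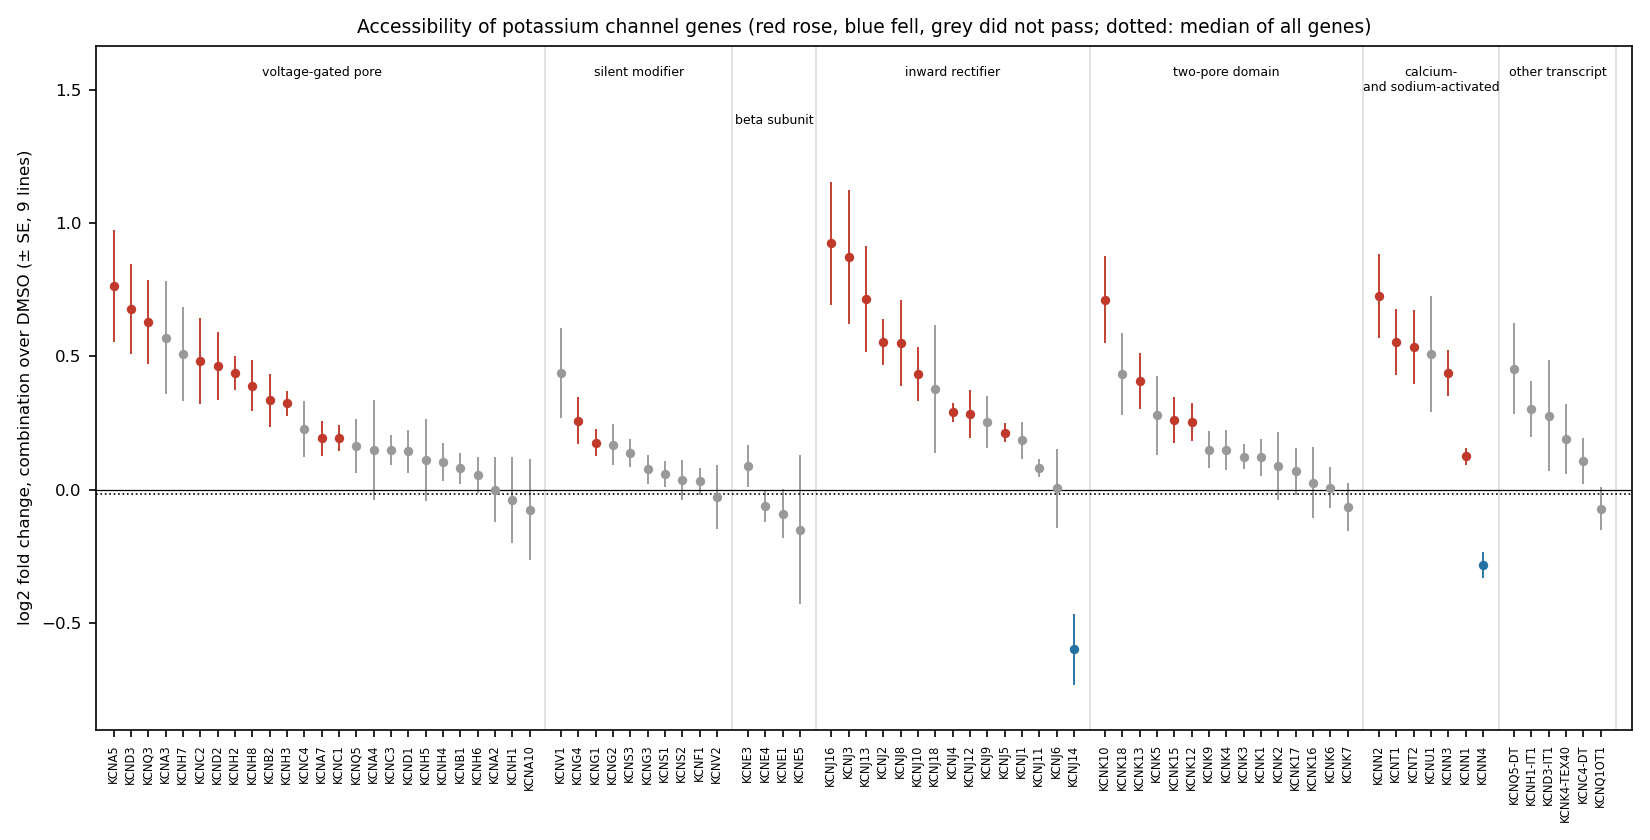
Log2 fold change of the combination over DMSO across 9 lines for 82 of the 83 members, by class, with SE bars. Red members rose (31 drawn), blue members fell (KCNJ14 and KCNN4), grey ones did not pass, and the dotted line is the median of all genes (-0.02).

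Among the voltage-gated pore genes 12 of 26 rose and none fell (2 of 26 were below 0), as the plot of fold changes by class shows. KCNA5, a delayed rectifier of the atrium, had 1.02, 3.79 and 8.91 CPM with the combination, against 1.19, 2.11 and 5.25 CPM in DMSO (lowest, median and highest line). Its ranges overlapped, but 8 of 9 lines were higher with the combination, and the log2 change was 0.76 ± 0.21 (SE; edgeR adjusted p = 0.0221). The largest of its line ratios were 1.86 in MDA-MB-231 and 1.64 in SUM-159PT, and BT-549 lay at -0.22. With peaks within 50 kb in place of 10 kb its change was 0.36 and no longer passed (edgeR adjusted p = 0.0657). 

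KCND3, which carries the transient A-type current of heart and brain, had 7.03, 20.8 and 34.4 CPM with the combination, against 4.21, 15.3 and 27.7 CPM in DMSO. All 9 lines were higher, SUM-159PT most of all, and the change was 0.68 ± 0.17 (edgeR adjusted p = 0.0154). KCNQ3, a subunit of the neuronal M current, had 4.60, 17.6 and 30.02 CPM with the combination, against 2.32, 10.7 and 23.4 CPM in DMSO, a change of 0.63 ± 0.16 (edgeR adjusted p = 0.0161) with 8 of 9 lines higher. KCNH2, the rapid delayed rectifier of the heart known as hERG, changed less, with line log2 ratios between 0.14 (HCC1937) and 0.76 (SUM-159PT). It had 15.8, 27.3 and 53.9 CPM with the combination, against 13.7, 20.1 and 35.7 CPM in DMSO, with all 9 lines higher and a change of 0.44 ± 0.06 (edgeR adjusted p = 0.00329). KCND2, the neuronal A-type relative of KCND3, rose by 0.46, KCNC2, a fast delayed rectifier, by 0.48, and KCNH8 and KCNH3, both of the ether-a-go-go superfamily, by 0.39 and 0.32. Further rises included KCNB2 (0.34), KCNA7 (0.19) and KCNC1 (0.19).

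A pair of voltage-gated genes studied in cancer and immune cells did not pass. KCNA3, the voltage-gated channel of lymphocytes, had 1.29, 3.43 and 32.7 CPM with the combination, against 1.64, 2.32 and 14.6 CPM in DMSO, a change of 0.57 ± 0.21 (edgeR adjusted p = 0.0654). The call depended on the tool: DESeq2 gave an adjusted p of 0.0381, and the change was 1.83 in HCC1395 and -0.35 in MDA-MB-231. KCNH1, an ether-a-go-go channel found in many tumours, lay at -0.04 ± 0.16 (edgeR adjusted p = 0.877), with 4 of 9 lines higher, and its sign turned to 0.08 with peaks within 50 kb. The KCNH1 sum leaves out the peak over its RefSeq promoter window, which is assigned to KCNH1-IT1. KCNH1-IT1 changed by 0.30 ± 0.10 and did not pass (edgeR adjusted p = 0.0509), with 7 of 9 lines higher. With tazemetostat in 4 lines KCNH1-IT1 rose by 0.54 (edgeR adjusted p = 0.0389). KCNQ1 was not analysed here.

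Few silent modifiers and no beta subunit passed. KCNG4 (0.26) and KCNG1 (0.18) were the 2 of 10 silent modifiers that rose, while 9 of 10 lay above 0 and 5 had an unadjusted p under 0.05. KCNV1, a modifier of delayed rectifiers, had the largest change of the class and did not pass (0.44 ± 0.17, edgeR adjusted p = 0.0722), with a log2 ratio of 1.71 in SUM-159PT. KCNS3, a partner of delayed rectifiers, had 11.7, 30.6 and 37.7 CPM with the combination, against 11.6, 28.00 and 35.8 CPM in DMSO and did not pass (0.14 ± 0.05, edgeR adjusted p = 0.0683). None of the 4 KCNE genes passed, at an unadjusted p under 0.05 or after adjustment, and their median was -0.08. Of the 6 other transcripts none passed, though 2 had an unadjusted p under 0.05.

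Inward rectifiers rose in 9 of 15 cases and fell in 1. KCNJ16, a pH-sensitive subunit that pairs with KCNJ10, had 0.168, 0.464 and 2.48 CPM with the combination, against 0.107, 0.249 and 1.62 CPM in DMSO. It was higher in all 9 lines with a change of 0.92 ± 0.23 (edgeR adjusted p = 0.0151), from a single peak of low counts. KCNJ3, a pore subunit of G-protein-gated channels, had 1.45, 4.62 and 6.98 CPM with the combination, against 0.98, 2.40 and 3.75 CPM in DMSO. It was higher in 7 of 9 lines, with 6.07 CPM with the combination against 0.98 CPM in DMSO in MDA-MB-468, and lower in HCC1143 and MDA-MB-231. Its change of 0.87 ± 0.25 (edgeR adjusted p = 0.0267) no longer passed without BT-549, HCC1937, SUM-149PT or SUM-159PT (edgeR adjusted p of 0.0551, 0.0611, 0.0635 and 0.0523).

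KCNJ13, a channel of retinal pigment and other transporting epithelia, had 0.212, 0.963 and 3.45 CPM with the combination, against 0.151, 0.699 and 1.58 CPM in DMSO, a change of 0.71 ± 0.20 (edgeR adjusted p = 0.0229; 0.0594 without HCC1937). Its sum is a single peak, over the promoter. In MDA-MB-468 it went the other way, with a log2 ratio of -0.37. KCNJ2, the classical inward rectifier of muscle, had 3.98, 20.01 and 34.96 CPM with the combination, against 2.63, 11.9 and 31.2 CPM in DMSO and was higher in all 9 lines, a change of 0.55 ± 0.09 (edgeR adjusted p = 0.00349). KCNJ8, the pore of ATP-sensitive channels in vascular muscle, had 0.99, 3.61 and 6.46 CPM with the combination, against 0.584, 2.78 and 6.03 CPM in DMSO, a change of 0.55 ± 0.16 (edgeR adjusted p = 0.0273). That call was lost with abundance-trended offsets (0.40, edgeR adjusted p = 0.0904) and without HCC1395, HCC1937 or SUM-149PT. KCNJ16 and KCNJ2 are neighbours on chromosome 17, their promoter peaks 115.7 kb apart, and both rose. KCNJ10 (0.43), the glial partner of KCNJ16, KCNJ4 (0.29), KCNJ12 (0.28) and KCNJ5 (0.21), a partner of KCNJ3, rose as well. KCNJ12 has a near-identical copy, KCNJ18, so the counts of both are uncertain.

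KCNJ14, an inward rectifier of the same subfamily as KCNJ2, was the larger of both falls. It had 0.53, 1.25 and 2.79 CPM with the combination, against 1.24, 1.94 and 3.89 CPM in DMSO. It was lower with the combination in 8 of 9 lines, MDA-MB-231 being the exception at a log2 ratio of 0.09, and the change was -0.60 ± 0.13 (edgeR adjusted p = 0.00966).

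Two-pore channel genes rose in 4 of 15 cases and none fell (1 of 15 was below 0). KCNK10, a stretch- and lipid-gated channel, had 2.48, 6.39 and 26.4 CPM with the combination, against 1.75, 4.32 and 20.7 CPM in DMSO, a change of 0.71 ± 0.16 (edgeR adjusted p = 0.0107) with 8 of 9 lines higher; with peaks within 50 kb it was 0.55 (edgeR adjusted p = 0.0574). KCNK13 (0.41), KCNK15 (0.26) and KCNK12 (0.25) also rose. KCNK5 had 2.95, 15.9 and 29.8 CPM with the combination, against 0.782, 12.8 and 37.8 CPM in DMSO and did not pass (0.28 ± 0.15, edgeR adjusted p = 0.175). KCNK9 had a change of 0.15 ± 0.07 (edgeR adjusted p = 0.12), which lay at -0.01 with peaks within 50 kb. KCNK1, a weakly conducting two-pore channel, stood at 0.12 ± 0.07 (edgeR adjusted p = 0.199).

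Calcium- and sodium-activated channel genes were the class with the highest share of changes, 5 of 7 rising and 1 falling. KCNN2, a small-conductance calcium-activated channel, had 2.17, 3.64 and 9.52 CPM with the combination, against 1.73, 2.15 and 5.69 CPM in DMSO. All 9 lines were higher, and the change was 0.73 ± 0.16 (edgeR adjusted p = 0.00928). KCNT1 and KCNT2, both sodium-activated, rose by 0.55 ± 0.12 and 0.54 ± 0.14 (edgeR adjusted p = 0.0101 and 0.0169), each higher in 9 of 9 lines; the KCNT2 call was lost with abundance-trended offsets (0.37, edgeR adjusted p = 0.0832). Of the relatives of KCNN2, KCNN3 rose by 0.44 and KCNN1 by 0.13.

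KCNN4 moved against its family. It had 12.03, 33.1 and 67.1 CPM with the combination, against 16.7, 38.4 and 91.5 CPM in DMSO, and all 9 lines were lower with the combination, by a log2 change of -0.28 ± 0.05 (edgeR adjusted p = 0.00448). The smallest line ratio was -0.05 in MDA-MB-231 and the largest -0.59 in SUM-159PT. KCNU1, a pH-gated channel of sperm in the same Slo family as KCNT1, had a change of 0.51 ± 0.22 and did not pass (edgeR adjusted p = 0.0981): 5 of 9 lines were higher, with log2 ratios of 1.65 in MDA-MB-468 and 1.42 in MDA-MB-231.

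**Figure D3:**
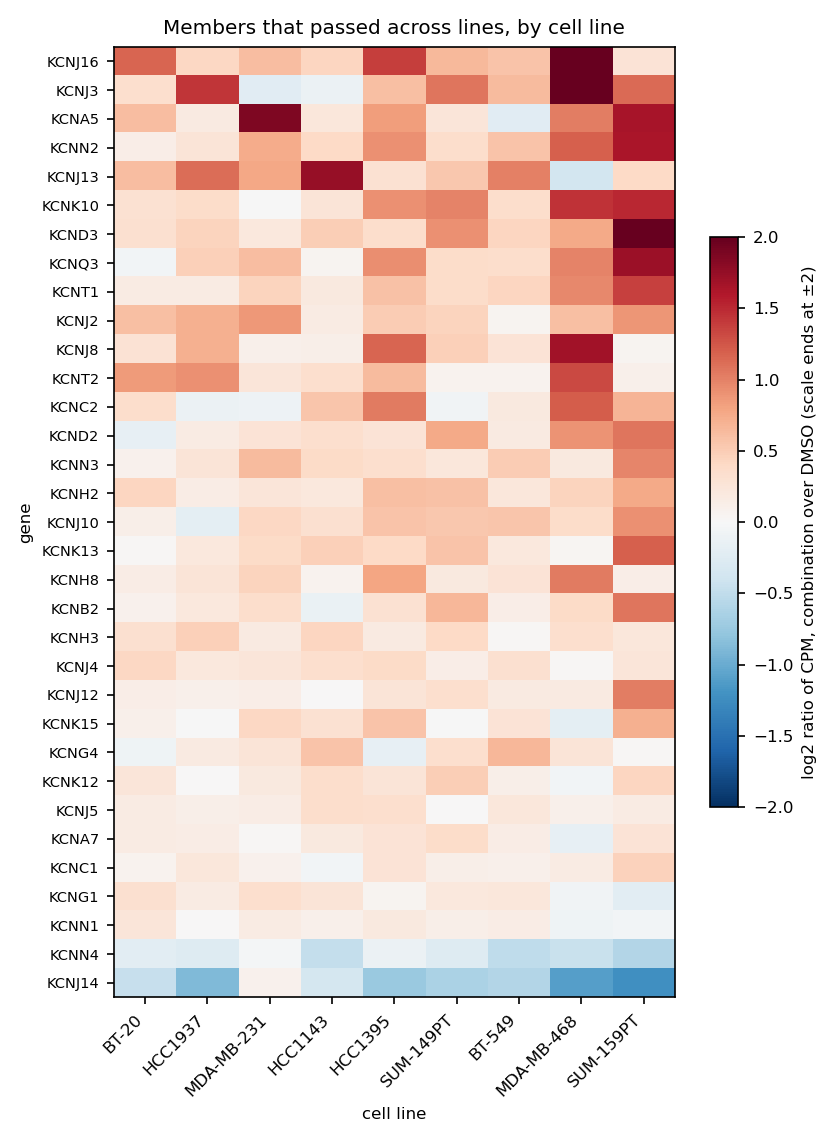
Log2 ratio of CPM, combination over DMSO, in each of 9 lines for 33 of the 34 members that passed across lines, ordered by their change. Most squares are red for the 31 risen members drawn, strongest in MDA-MB-468 and SUM-159PT, while KCNN4 and KCNJ14 are blue in nearly all lines.

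The heat map of line ratios shows how unevenly the rises were spread. SUM-159PT had the highest ratio of the 9 lines for 15 of the 32 risen members and MDA-MB-468 for 6. In fits of single libraries within a line, 21 members of 79 tested rose in BT-20 and 4 fell, where 11.9% and 9.46% of all genes did. At the other end 50 of 76 rose and 4 fell in SUM-159PT, where 27.9% and 21.0% of all genes did, and 47 of 82 rose and 6 fell in MDA-MB-468 (26.4% and 21.7% of all genes). The other lines lay between: 43 of 78 rose and 2 fell in BT-549 (24.3% and 19.2%), 34 of 81 and 4 in HCC1143 (19.0% and 14.6%), and 34 of 77 and 5 in HCC1395 (16.8% and 13.4%). HCC1937 had 31 of 79 rising and 4 falling (16.1% and 13.0%), MDA-MB-231 31 of 79 and 2 (15.2% and 10%), and SUM-149PT 36 of 80 and 4 (16.9% and 10.6%). These p-values cover counting error only, since the 3 libraries differed by less than sampling noise. In all 9 lines the share of members that rose was above that of all genes and the share that fell was below it.

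The member with the largest rise differed from line to line, while KCNJ14 was the largest fall in 5 lines. In SUM-159PT KCND3 had 17.3, 18.8 and 19.4 CPM with the combination, against 3.85, 4.09 and 4.73 CPM in DMSO (log2 2.32 ± 0.09, edgeR adjusted p = 5.49e-48). In MDA-MB-468 KCNJ3 had 5.71, 5.95 and 6.54 CPM with the combination, against 0.665, 0.992 and 1.27 CPM in DMSO (log2 2.77 ± 0.17, edgeR adjusted p = 6.08e-32). KCNJ3 was also the largest rise in HCC1937 (log2 1.46) and SUM-149PT (1.11). KCNA5 led in MDA-MB-231 (1.92), KCNA3 in HCC1395 (1.81), KCNJ13 in HCC1143 (1.75), KCNA4, an A-type channel, in BT-549 (1.28) and KCNT2 in BT-20 (0.85). In SUM-159PT KCNJ14 had 0.334, 0.444 and 0.791 CPM with the combination, against 1.15, 1.28 and 1.29 CPM in DMSO (log2 -1.04 ± 0.33, edgeR adjusted p = 0.00653). KCNN4 was the largest fall in HCC1143 (-0.44), KCNA2, a voltage-gated channel of axons, in MDA-MB-231 (-0.83) and KCNE1, the beta subunit of the slow cardiac delayed rectifier, in SUM-149PT (-0.48). The largest fall in HCC1395, KCNQ1OT1 at -1.07, had 0.888, 1.03 and 1.49 CPM with the combination, against 1.51, 1.96 and 3.64 CPM in DMSO libraries, which include the replicate that held BT-20 signal. In a single test of line by treatment 76 of 82 members (92.7%) differed between lines, where 73.7% of all genes did.

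Tazemetostat alone also opened many of the members. Across the 4 lines with single agents 28 of 83 rose (33.7%; 9.81% of all genes) and 1 fell (18.7% of all genes), with a median of 0.27, against -0.02 for all genes. In the same 4 lines the combination raised 24 (7.31% of all genes) and lowered 2 (12.4% of all genes), with a median of 0.27. These comparisons share their DMSO samples. The counts depended on single lines: without SUM-159PT 8 members rose with tazemetostat (2.0% of all genes) and 6 with the combination (0.948%), and without SUM-149PT 16 and 14 (5.72% and 4.18% of all genes). Without MDA-MB-468 14 rose with tazemetostat (4.35% of all genes). The share of all genes that rose was thus lower in these fits as well.

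**Figure D4:**
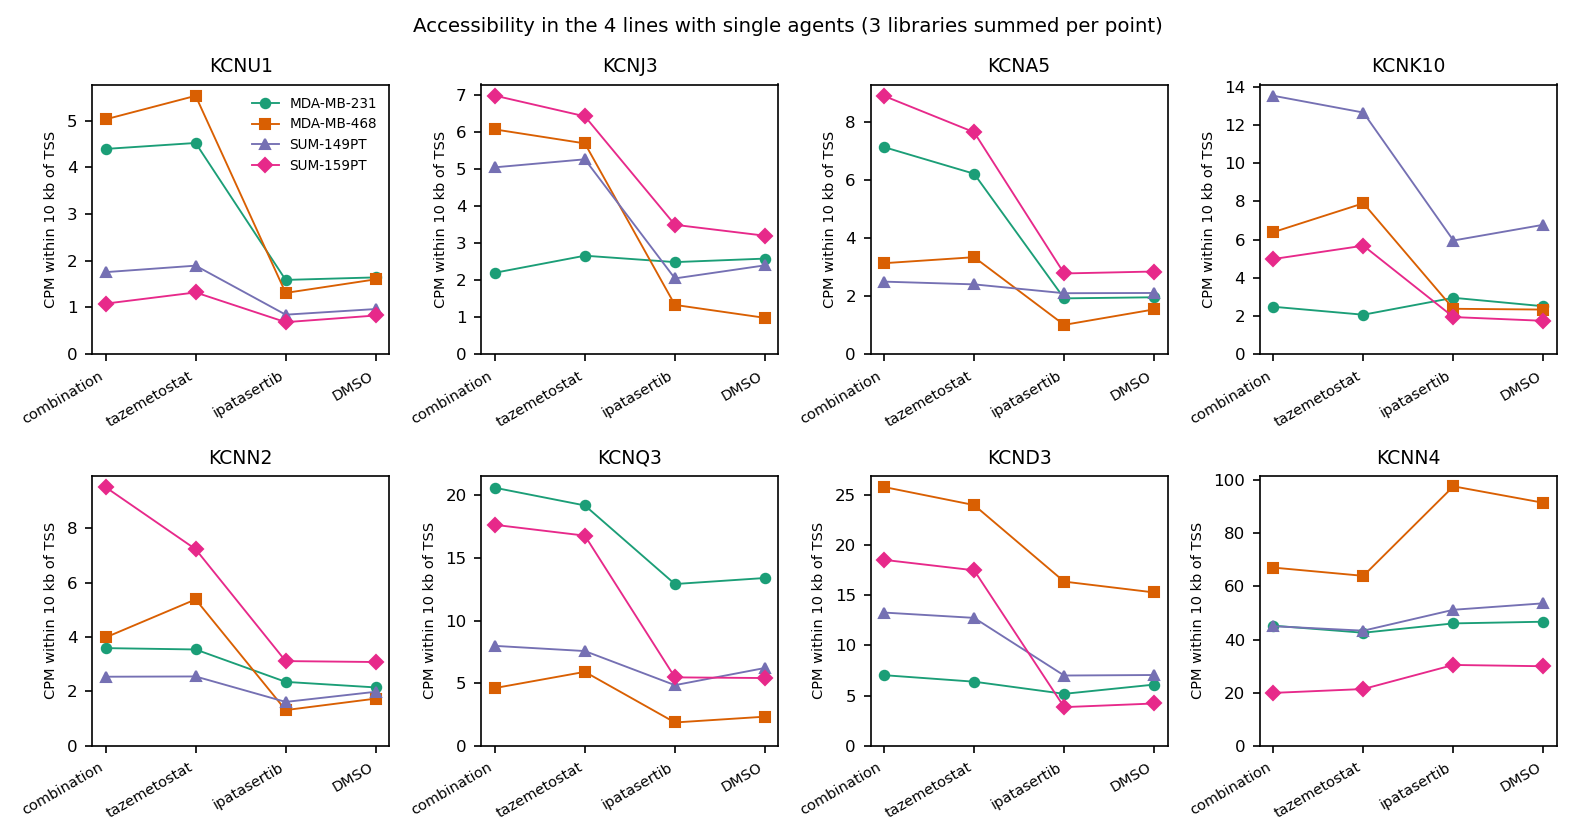
CPM within 10 kb of the TSS of 8 members under each treatment in the 4 lines with single agents, each point the sum of 3 libraries and lines joining the points of a cell line. The points of the combination and of tazemetostat lie near each other, those of ipatasertib near DMSO, and KCNN4 is the only 1 of the 8 that is lower with tazemetostat than in DMSO in all 4 lines.

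Within single lines tazemetostat raised 32 of 79 members and lowered 2 in MDA-MB-231 (15.5% and 10.3% of all genes), and raised 47 of 82 and lowered 8 in MDA-MB-468 (27.5% and 26.9%). It raised 39 of 80 and lowered 1 in SUM-149PT (16.9% and 9.88%), and raised 48 of 76 and lowered 3 in SUM-159PT (28.1% and 21.6%). The largest rise was KCNJ16 in MDA-MB-468, with 1.86, 2.19 and 2.58 CPM with tazemetostat, against 0.277, 0.318 and 0.434 CPM in DMSO (log2 2.86 ± 0.29, edgeR adjusted p = 2.38e-16).

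KCNU1 had the largest change with tazemetostat across lines. In MDA-MB-231, MDA-MB-468, SUM-149PT and SUM-159PT, in this order here and below, it had 4.52, 5.53, 1.89 and 1.32 CPM with tazemetostat, against 1.64, 1.60, 0.966 and 0.828 CPM in DMSO. All 4 lines were higher, by 1.35 ± 0.21 (edgeR adjusted p = 0.00327). With the combination it had 4.39, 5.03, 1.76 and 1.08 CPM.

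KCNJ3 had 2.66, 5.69, 5.26 and 6.42 CPM with tazemetostat, against 2.58, 0.98, 2.40 and 3.20 CPM in DMSO. MDA-MB-231 hardly moved, and the change was 1.23 ± 0.37 (edgeR adjusted p = 0.0295), a call lost without any of the other 3 lines. KCNA5 had 6.22, 3.35, 2.41 and 7.66 CPM with tazemetostat, against 1.96, 1.55, 2.11 and 2.85 CPM in DMSO, a change of 1.21 ± 0.28 (edgeR adjusted p = 0.0114). Here SUM-149PT moved least.

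KCNK10 had 2.07, 7.91, 12.7 and 5.68 CPM with tazemetostat, against 2.51, 2.34, 6.78 and 1.75 CPM in DMSO, a change of 1.17 ± 0.33 (edgeR adjusted p = 0.0231). It was lower in MDA-MB-231 and higher in the other 3 lines. KCNN2 had 3.54, 5.39, 2.55 and 7.24 CPM with tazemetostat, against 2.15, 1.73, 1.99 and 3.08 CPM in DMSO (1.10 ± 0.25, edgeR adjusted p = 0.0106). KCNQ3 had 19.2, 5.90, 7.56 and 16.8 CPM, against 13.4, 2.32, 6.21 and 5.40 CPM in DMSO (1.03 ± 0.24, edgeR adjusted p = 0.0111). Both were higher in all 4 lines. The KCNA5, KCNK10, KCNN2 and KCNQ3 calls were each lost when MDA-MB-468 or SUM-159PT was left out.

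By class, tazemetostat raised 9 of 26 voltage-gated, 7 of 15 inward rectifier, 4 of 15 two-pore and 4 of 7 calcium- and sodium-activated genes, 2 of 10 silent modifiers, 1 of 4 beta subunits and 1 of 6 other transcripts. KCNE3, a beta subunit of epithelial channels, was that beta subunit (0.23, edgeR adjusted p = 0.0484). KCNN4 was the only fall. It had 42.6, 64.01, 43.3 and 21.4 CPM with tazemetostat, against 46.7, 91.5, 53.7 and 29.9 CPM in DMSO. All 4 lines were lower (-0.26 ± 0.08, edgeR adjusted p = 0.0306), a call lost without MDA-MB-468, SUM-149PT or SUM-159PT, with peaks within 1 kb and with abundance-trended offsets. KCNJ14 had a change of -0.25 ± 0.20 (edgeR adjusted p = 0.339) with tazemetostat and of -0.22 ± 0.20 with ipatasertib, neither of which passed, and of -0.62 ± 0.20 with the combination in these lines (edgeR adjusted p = 0.0481). Of the 32 members that rose with the combination in 9 lines, 20 also rose with tazemetostat in 4 lines, comparisons that share lines and controls. The same overlap over all genes was not counted here, so nothing particular to the members can be read from this number.

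No member passed with ipatasertib alone across the 4 lines. None of 83 rose or fell with edgeR or DESeq2, and the same held for all genes (0.0% each way). Of 24002 genes 539 had an unadjusted p under 0.05, 1 member among them, a smaller share than 0.05. The edgeR test was thus conservative here, and small changes may have gone uncalled. The members' changes ran from -0.36 to 0.54. Their SE values lay between 0.048 and 0.50, with a median of 0.15, so precision differed widely between members. The 4 treatments shared 1 estimate of spread, which takes in differences between lines under tazemetostat and the combination. These SE values therefore do not measure the spread under ipatasertib itself. KCNJ3 stood at 0.03 ± 0.37, KCNA5 at -0.15 ± 0.28, KCNH2 at -0.00 ± 0.10 and KCNN4 at 0.02 ± 0.08. The response to both agents did not differ detectably from the sum of the single responses for any member with edgeR or DESeq2 (0.0% of all genes each way). The departures lay between -0.44 and 0.28. Of 24002 genes only 64, and no member, had an unadjusted p under 0.05 with edgeR, far below a share of 0.05. This contrast could thus call little, and the lack of calls does not show that the responses add up.

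Within single lines ipatasertib changed few members: none of 79 in MDA-MB-231 (0.0232% of all genes rose and 0.148% fell), 2 rose and 1 fell of 82 in MDA-MB-468 (2.96% and 3.91%), 2 and 5 of 80 in SUM-149PT (2.07% and 2.9%), and 1 and 1 of 76 in SUM-159PT (0.257% and 0.51%). The clearest was KCNK2, a stretch-gated two-pore channel, in SUM-159PT. It had 11.9, 12.7 and 13.7 CPM with ipatasertib, against 6.23, 7.04 and 7.88 CPM in DMSO (log2 0.84 ± 0.09, edgeR adjusted p = 1.05e-11). Tazemetostat moved it the other way in that line, to 3.59, 3.95 and 4.12 CPM (log2 -0.67), and the summed value with the combination was 6.68 CPM, against 7.08 CPM in DMSO. In MDA-MB-468 ipatasertib raised the silent modifier KCNV2 (0.74) and lowered KCNE1 (-0.25), and in SUM-149PT it raised KCNH3 (0.31) and lowered KCNA3 (-0.84).

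Opening was also resolved to single peaks. Of the members' 604 peaks 405 were tested. Within 1 kb of a TSS 20 of 93 peaks rose (21.5%, against 4.14% of all peaks so placed) and 1 fell (5.32% of all). Between 1 and 10 kb 19 of 312 rose (6.09%, against 3.52%) and 4 fell (3.88% of all). The difference between these shares was not tested. The risen peaks belonged to 21 genes, 17 of them with a risen peak within 1 kb. At an adjusted p under 0.01 5 of the 405 peaks rose and none fell, against 0.407% and 0.208% of all peaks within 10 kb of a TSS.

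**Figure D5:**
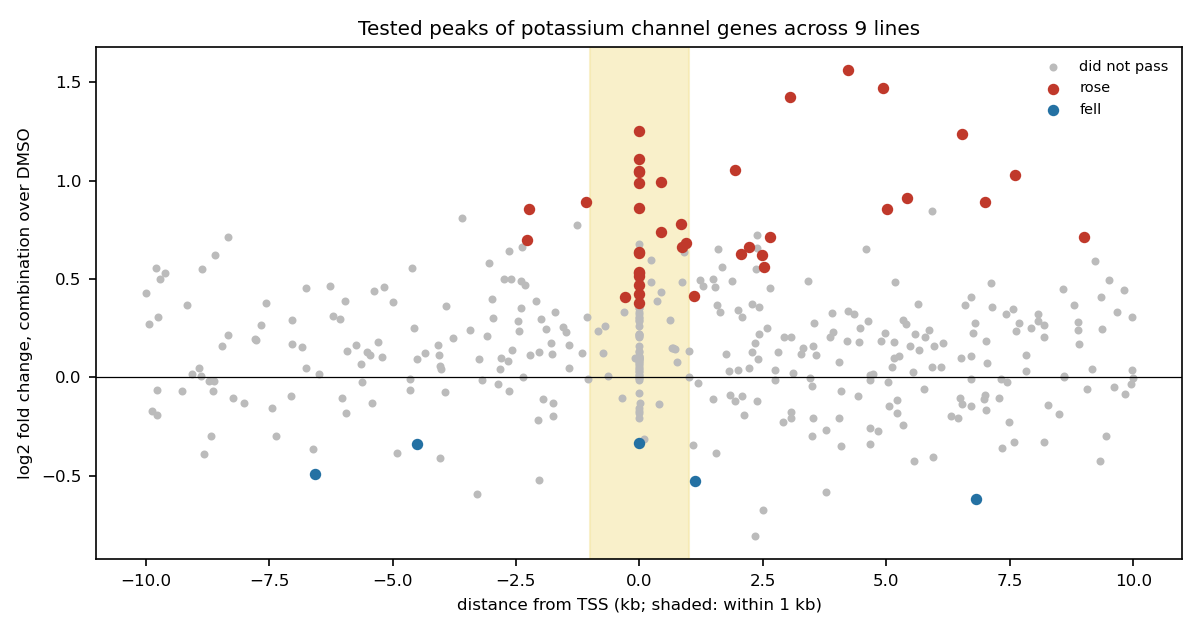
Log2 fold change of the combination over DMSO across 9 lines for the 405 tested peaks of potassium channel genes, by distance from the TSS (kb; negative is upstream). Of 39 risen peaks (red) 20 lie in the shaded 1 kb on either side of the TSS, and 5 peaks fell (blue).

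The plot of peaks by distance places the strongest opening inside KCNJ2, in its single intron, 4220 bp from the TSS. That peak, at chr17:70172893-70173296 (hg38), had 0.147, 1.21 and 4.92 CPM with the combination, against 0.0534, 0.299 and 2.10 CPM in DMSO (log2 1.56 ± 0.23, edgeR adjusted p = 0.0043; higher in 8 of 9 lines). Its neighbour at chr17:70173612-70174078 changed by 1.47, while the promoter peak of KCNJ2, over the sequence printed above, changed by 0.42. The intronic peaks had a median of 1.21 and 0.905 CPM with the combination and 0.299 and 0.325 CPM in DMSO, against 15.7 CPM with the combination and 11.04 CPM in DMSO at the promoter.

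KCNK10 opened at its TSS: the peak at chr14:88326210-88327097 had 0.266, 1.56 and 8.01 CPM with the combination, against 0.205, 0.694 and 5.95 CPM in DMSO (log2 1.11 ± 0.24, edgeR adjusted p = 0.0161; higher in 8 of 9 lines). KCNN2 did so as well, at chr5:114054576-114056458, with 0.569, 2.97 and 7.88 CPM with the combination, against 0.331, 1.41 and 4.996 CPM in DMSO (log2 1.05 ± 0.15, edgeR adjusted p = 0.00383; higher in 9 of 9 lines). That is the TSS of the deposited annotation. The RefSeq promoter window of KCNN2 lies elsewhere, at chr5:114361820-114362119, under another peak of the gene. A peak 441 bp inside KCNN3, at chr1:154868512-154869840, had 2.02, 5.79 and 15.00 CPM with the combination, against 1.09, 2.71 and 9.40 CPM in DMSO (log2 0.99 ± 0.12, edgeR adjusted p = 0.00224; higher in 9 of 9 lines). Peaks at the start of KCNJ3 (0.99), KCNA5 (1.05), KCND3 (0.64) and KCNH2 (0.53) rose too, those of KCNA5 and KCND3 covering the whole of the sequences shown and that of KCNJ3 the upstream part. The promoter peak of KCNJ13 had a change of 0.68 and did not pass in the fit of peaks (edgeR adjusted p = 0.055), although the same counts passed in the fit of genes. KCNH7, an ether-a-go-go channel of the nervous system, had a risen peak at its start (1.25) although its gene sum did not pass. That KCNH7 peak had low counts, with a median of 0.485 CPM with the combination and 0.145 CPM in DMSO, and was higher in 7 of 9 lines. The KCNA5 peak was low too, with medians of 0.355 and 0.197 CPM.

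KCNN4 held 3 of the 5 fallen peaks. One at chr19:43779767-43780138, classed as promoter and 1119 bp from the TSS, had 0.467, 1.42 and 4.64 CPM with the combination, against 0.674, 1.78 and 6.43 CPM in DMSO (log2 -0.53 ± 0.14, edgeR adjusted p = 0.031; higher in 0 of 9 lines). Another, at -4503 bp from the TSS and chr19:43784269-43785760, had 5.74, 12.4 and 17.9 CPM with the combination, against 7.54, 16.2 and 25.1 CPM in DMSO (log2 -0.34 ± 0.07, edgeR adjusted p = 0.0174; higher in 0 of 9 lines). The peak over its start, covering the sequence shown, changed by -0.34. Of 3 tested peaks of KCNJ14 the fallen one lay in exon 2 of 3, at chr19:48462394-48463028, with 0.254, 0.77 and 1.76 CPM with the combination, against 0.491, 1.23 and 2.25 CPM in DMSO (log2 -0.62 ± 0.15, edgeR adjusted p = 0.0283; higher in 0 of 9 lines). Its other peaks, 2511 and 3769 bp from the TSS, had changes of -0.67 and -0.58 and did not pass (edgeR adjusted p = 0.081 and 0.17). The last was a peak at -6566 bp from the TSS of KCNN1, at chr19:17944120-17944727, which changed by -0.49 while 4 peaks around the KCNN1 promoter rose by 0.41 to 0.71.

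Genes of partner subunits were likewise called as rises and not as falls. Of 25 listed auxiliary subunits and partners 20 were tested across the 9 lines, of which 7 rose and none fell (median 0.13; 6 of 20 below 0), where 10.2% of all genes rose and 16.6% fell. The rises included KCNIP1 and KCNIP4 (0.64 and 0.47), which bind the A-type channels KCND2 and KCND3, ABCC9 and ABCC8 (0.55 and 0.37), the sulphonylurea receptors that assemble with KCNJ8 and its relative KCNJ11, and LRRC52 (0.69), a partner of KCNU1. KCNMB4, a beta subunit of KCNMA1, rose by 0.13, and HCN4, a pacemaker channel, by 0.46. With tazemetostat 6 of 19 rose and none fell (9.81% and 18.7% of all genes). Of 27 tested voltage-gated sodium and calcium channel subunits 13 rose with the combination and none fell (median 0.31; 3 of 27 below 0), among them CACNA1E (0.94), a calcium channel pore, and CACNB2 (0.82), a calcium channel beta subunit. With tazemetostat 7 of the 27 rose and with the combination in the 4 lines 5 did, and none fell (9.81% and 7.31% of all genes rose).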

How the data were processed

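The authors deposited whole-number counts of reads per peak for 861439 peaks in 78 libraries, not normalised, with a table giving each peak's gene, class and distance to the TSS on hg38. Per the submitters' processing notes the tools were MACS2 for peaks and featureCounts for read counting. Not given in the sources used here are their versions, the aligner, and whether duplicates were removed or reads shifted for Tn5. The labels list 84 samples, of which 6 (HCC1806) were not analysed here. Each peak carries the gene of its nearest TSS, whether or not it acts on that gene, and 61 peaks had no symbol.

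Counts of peaks within 10 kb of a TSS were summed per gene. Per library, 12292571 to 21459284 counts set the precision; intervals of single values cover counting error only. The 3 libraries of a line and treatment were summed, and genes kept by filterByExpr (minimum count 10) were tested with edgeR 4.0.16 (TMM, robust quasi-likelihood, line as block) in R 4.3.3, with Benjamini-Hochberg adjustment over all genes and a threshold of 0.05. Within-line fits and the test of line by treatment used single libraries. Peaks were tested alike, filtered by treatment group. SE is the log2 change over the square root of F. CPM are counts per 1000000 counts in peaks, printed per line as sums of 3 libraries. The alternatives tried were total counts, size factors and offsets trended on abundance by loess (limma 3.58.1, span 0.3) in place of TMM, DESeq2 1.42.0, other filters and windows, a replicate block, and leaving out replicates or lines.

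Members and gene lists were chosen with earlier results of these data known. Named genes are up to 12 rises and 8 falls with the combination and 6 and 6 with each single agent, a panel of 10 (9 measured), the largest rise and fall per line without overlap of libraries, and 5 highest and 5 most variable levels; named peaks are the 4 largest each way whose mean log2 CPM was 0 or more. Other risen members, other peaks and the partner genes named were added after their values were seen. The fits were tested on simulated data in which every line had the same change. Across 9 lines 95% of log2 changes of 0.5 and 100% of those of 1 were recovered, up or down. In the 4-line fit of tazemetostat 44% and 99% were. The measured responses differed between lines, so these shares need not hold for the real data. Some genes counted in the totals are not reported here by name.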

Additional observations from a re-analysis of the deposited data

Results flagged for a closer look

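In 3 of 28 groups of 9 line ratios 1 line stood far from the others. The members were in part named for large changes in the same data, so this count was not set against a chance rate. KCND3 in SUM-159PT had a log2 ratio of combination to DMSO of 2.14, the other 8 lines lying between 0.21 and 0.91. KCNJ16 in MDA-MB-468 had 2.49, the others 0.28 to 1.38. KCNK5 in SUM-159PT, the line where it was least accessible in DMSO, had 1.92 (2.95 CPM with the combination and 0.78 CPM in DMSO), the others -0.34 to 0.47.

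All 21 named members compared between lines responded differently to the combination by the edgeR F test of line by treatment, as did 73.7% of all genes; libraries of a line differ by less than sampling noise, so these p-values cover counting error only. The adjusted p-values of the inward rectifiers were 1.92e-21 for KCNJ3, 7.63e-20 for KCNJ2, 1.43e-07 for KCNJ8, 7.72e-05 for KCNJ13, 0.00108 for KCNJ16 and 0.0176 for KCNJ14. Those of the voltage-gated genes were 2.8e-38 for KCND3, 5.52e-30 for KCNQ3, 1.01e-21 for KCNA3, 2.99e-19 for KCNA5, 4.96e-17 for KCNH2 and 0.000191 for KCNH1, and that of the silent modifier KCNS3 was 5.57e-13. For the two-pore genes the edgeR adjusted p was 1.7e-21 for KCNK5, 2.79e-18 for KCNK10, 3.53e-16 for KCNK1 and 4.12e-14 for KCNK9. For the calcium- and sodium-activated genes it was 3.11e-24 for KCNT1, 5.65e-14 for KCNN4, 9.64e-13 for KCNT2 and 2.39e-11 for KCNN2.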

How the results depend on the processing

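Across 9 lines, rises with the combination numbered 25 (abundance-trended offsets) to 38 (DESeq2), against 32 as reported, and 26 to 33 when 1 line was left out. Over all genes 2263 of 24295 rose with abundance-trended offsets and 2995 of 23352 with DESeq2, against 2473 of 24295 as reported. Leaving out 1 line gave 1895 to 2555 risen genes. Risen members numbered 35, with 2 falls, without the HCC1395 replicate that held BT-20 signal, an alternative chosen after seeing the data. In that fit 2528 of 24280 genes rose and 3873 fell. With peaks within 1 kb 1 member fell. With tazemetostat in 4 lines, rises numbered 17 with abundance-trended offsets and 8 (without SUM-159PT) to 27 when a line or replicate was left out. Falls numbered 0 to 1 there and 0 with peaks within 1 kb. Over all genes 1336 of 24002 rose with tazemetostat under abundance-trended offsets, against 2354 as reported. When a line or replicate was left out, 480 (without SUM-159PT) to 2403 genes rose and 850 to 5056 fell. The combination in those 4 lines had 6 (without SUM-159PT) to 24 rises and 0 to 2 falls on leaving out a line or replicate, 1 fall with no filter and 0 within 1 kb. Over all genes 228 (without SUM-159PT) to 1852 rose and 211 to 3662 fell on leaving out a line or replicate. The cause of these shifts was not tested; fits without a line have fewer samples. Within-line calls with ipatasertib, summed over lines, were 2 to 4 rises and 1 to 2 falls without a replicate, against 5 and 7. At an adjusted p under 0.01, 5 peaks rose and 0 fell. At the threshold of 0.05, 3 to 5 peaks fell without a replicate, against 5 as reported.

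Signs turned for KCNH1 with the combination (0.084 with peaks within 50 kb; -0.15 to 0.068 when a line or replicate was left out), for KCNK9 (-0.01 within 50 kb) and for KCNK5 with tazemetostat (-0.00089 without SUM-159PT, up to 0.66 without MDA-MB-468). None of these had passed. Over all named members, 261 of the values under another processing kept sign and call, 8 lost and 5 gained a call, and 2 turned sign. When libraries or lines were left out the numbers were 334, 24, 8 and 5.

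Same-numbered libraries of the treatments did not deviate together (correlations of -0.14 to 0.06 over 27 pairs of combination and DMSO libraries, 0 above 0.1). The deviations were mostly counting noise, so these correlations cannot tell whether the numbers pair libraries. With the replicate number as a block, within-line calls were 327 rises and 36 falls with the combination (327 and 35 without it), 169 and 14 with tazemetostat (166 and 14), and 5 and 7 with ipatasertib (5 and 7). The block left the number of members that differed between lines at 76. Depth limits the least accessible members most: 7 had a median under 1 CPM in DMSO, 3 of them among the rises (KCNC2, KCNJ13 and KCNJ16).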
